A study of Zea mays with 6 samples.

Results

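The guide strands of miR396 and the growth-regulating factor (GRF) genes at whose miR396 sites cleaved transcripts were sequenced were examined in maize ovaries with incompletely fused carpels (IFC) and with completely fused carpels (CFC). The guide strands were every known miRNA of the miR396 family whose name does not give the 3p arm, 5 of the 161 known miRNAs listed. The genes were those with a miR396 row in the degradome table that the family column or the annotation calls GRF, 7 of the 113 genes listed there. Both phenotypes came from the inbred line Yu-A474, were taken from the same ears before pollination, and were told apart by whether the carpel walls had closed, with no allele or treatment named between them. In the labels the CFC samples are called WT. Small RNA was sequenced in 2 IFC and 2 CFC libraries, which the study took from different ear rows. The degradome was sequenced in 1 IFC and 1 CFC library, each a mix of both ovary samples of its phenotype, so that degradome differences have no replicate check.

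A miRNA guide strand is loaded into an Argonaute protein and directs it to transcripts with a complementary site, which in plants is usually cut opposite the middle of the guide. Guides of the miR396 family direct the cutting of transcripts of GRF genes, plant transcription factors that act with GRF-interacting coactivators and keep cells dividing in young leaves and floral organs. In Arabidopsis, this pair of regulators also affects how many carpels form and how the pistil grows, and in rice it affects grain size. In degradome sequencing the 5′ ends of uncapped transcript fragments are read, and a cut site appears as a pile of tags at 1 position of a transcript.

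The sequences of the 5 guide strands are shown because they differ at the 5′ end, at inner bases, at the last base and in length. The guides also differ in how they align on the GRF transcripts. They are printed as the deposited table gives them, with T for U and with the seed, bases 2 to 8, in capitals.
zma-miR396c_L-1: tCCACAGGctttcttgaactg
osa-miR396e-5p_L+1: cTCCACAGgctttcttgaactg
zma-miR396a-5p: tTCCACAGctttcttgaactg
zma-miR396e-5p: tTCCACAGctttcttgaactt
zma-miR396g-5p_1ss13AC: tCCCACAGctttcttgaactg
The prefix zma marks a match to a maize miRBase entry and osa a match to a rice entry. The suffix L-1 marks a sequence that lacks 1 base at the 5′ end of its miRBase entry, L+1 a sequence with 1 base added there, and 1ss13AC the substitution A13C, counted from 1 at the 5′ end. The 5 sequences carried 3 different seeds. zma-miR396a-5p, zma-miR396e-5p and osa-miR396e-5p_L+1 shared a seed, whereas zma-miR396c_L-1 and zma-miR396g-5p_1ss13AC each had their own. zma-miR396e-5p differed from zma-miR396a-5p only by G21T, and zma-miR396g-5p_1ss13AC only by T2C. Relative to zma-miR396a-5p, zma-miR396c_L-1 had 1 base inserted after position 7 and lacked the first base, which left both at 21 nt. osa-miR396e-5p_L+1, at 22 nt, was zma-miR396c_L-1 with 1 more base at the 5′ end.

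The table gives each guide a hairpin precursor with coordinates, on a genome build that is not given in the sources used here. The hairpin of zma-miR396a-5p was placed at chr4:173324503-173324639 on the plus strand, that of zma-miR396e-5p at chr5:214399647-214399786 on the minus strand and that of zma-miR396g-5p_1ss13AC at chr9:15367459-15367582 on the plus strand. The hairpins of zma-miR396c_L-1, chr2:1962527-1962600, and of osa-miR396e-5p_L+1, chr2:1962232-1962435, were both placed on the minus strand of chromosome 2. Although these last 2 intervals do not overlap, the 74 bases printed for the hairpin of zma-miR396c_L-1 were the first 74 of the 204 bases printed for the other, and both held the zma-miR396c_L-1 sequence without a mismatch. The sequence of zma-miR396a-5p was likewise found in the chromosome 4 and the chromosome 5 hairpins. Reads of these guides can therefore not be assigned to 1 precursor. Of the 5 guides, 2 were found in their own listed hairpin and the other 3 differed from it by 1 base each. These were G21T in zma-miR396e-5p, A13C in zma-miR396g-5p_1ss13AC and T1C in osa-miR396e-5p_L+1, with the base of the hairpin given first.

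Levels were given as normalized expression (NE), the reads of a miRNA over the clean reads of its library, in RPM. The commonest of the lowest NE values of each library was read here as the worth of a single read. It was 1.15 and 0.837 in IFC replicates 1 and 2, against 0.717 and 0.879 in CFC replicates 1 and 2. Lower values were also listed, such as 0.659 for zma-miR396g-5p_1ss13AC in CFC replicate 2. On that reading the libraries were divided by totals between 873087 and 1394658 reads. The study states several times more valid reads per library than this, so the worth of a single read is an inference from the values, and every read number of a guide given here rests on it. The summed NE of the known miRNAs was 19255 and 26590 in the IFC libraries, against 28156 and 28278 in the CFC libraries.

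Guide levels were very unequal, and zma-miR396c_L-1 made up most of the family. Its NE was 1345 and 1893 in the IFC libraries, against 676 and 3539 in the CFC libraries. Both IFC values lay between the CFC values. Its rank among the known miRNAs was 5 and 6 in the IFC libraries, against 10 and 3 in the CFC libraries. The CFC replicates differed by 5.23-fold and the IFC replicates by 1.41-fold, while its level corresponded to between 943 and 4027 reads per library if the inferred worth of a read holds. The mean NE of zma-miR396c_L-1 was 1619 ± 388 in IFC and 2107 ± 2024 in CFC ovaries (SD, n = 2 each). On the log2(NE + 1) scale the difference was 0.04 ± 0.89 (SE), with a 95% interval from -1.84 to 1.93.

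zma-miR396a-5p was the next most abundant guide. Its NE was 98.5 and 94.99 in the IFC libraries, against 118 and 213 in the CFC libraries. Both IFC values of NE were below both CFC values, and its mean was 96.7 ± 2.48 in IFC and 165 ± 67.4 in CFC ovaries (SD, n = 2 each), a ratio of 0.586. Its share of the summed NE of the known miRNAs was 0.512% and 0.357% in IFC, against 0.418% and 0.753% in CFC. On that scale the groups overlapped. The log2 fold change was -0.70 ± 0.79 (SE), with a 95% interval from -2.38 to 0.97. The gap between the CFC replicates, 1.81-fold, was of the same order as the gap between the group means. In 2 libraries its NE was not a whole multiple of the NE of 1 read, being 113.5 reads in IFC replicate 2 and 242.25 reads in CFC replicate 2.

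The other 3 guides were at or near the limit of detection. zma-miR396e-5p had an NE of 2.29 and 3.35 in the IFC libraries, 2 and 4 reads on the inferred scale, against 7.17 and 3.51 in the CFC libraries, 10 and 4 reads. osa-miR396e-5p_L+1 was listed at 0 and 0.837 in the IFC libraries, or 0 and 1 read, against 4.30 and 0.879 in the CFC libraries, or 6 and 1 reads. Both guides had IFC values below the CFC values, but on the inferred read scale IFC replicate 2 and CFC replicate 2 held equal numbers of reads of each. A listed 0 in IFC replicate 1 allows an NE of up to 3.44, which is 3 reads on that scale, for counting error only. zma-miR396g-5p_1ss13AC was listed at 0 in all libraries except CFC replicate 2, with an NE of 0.659, and did not pass the filter of an NE above 1 in at least 1 library.

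**Figure D1:**
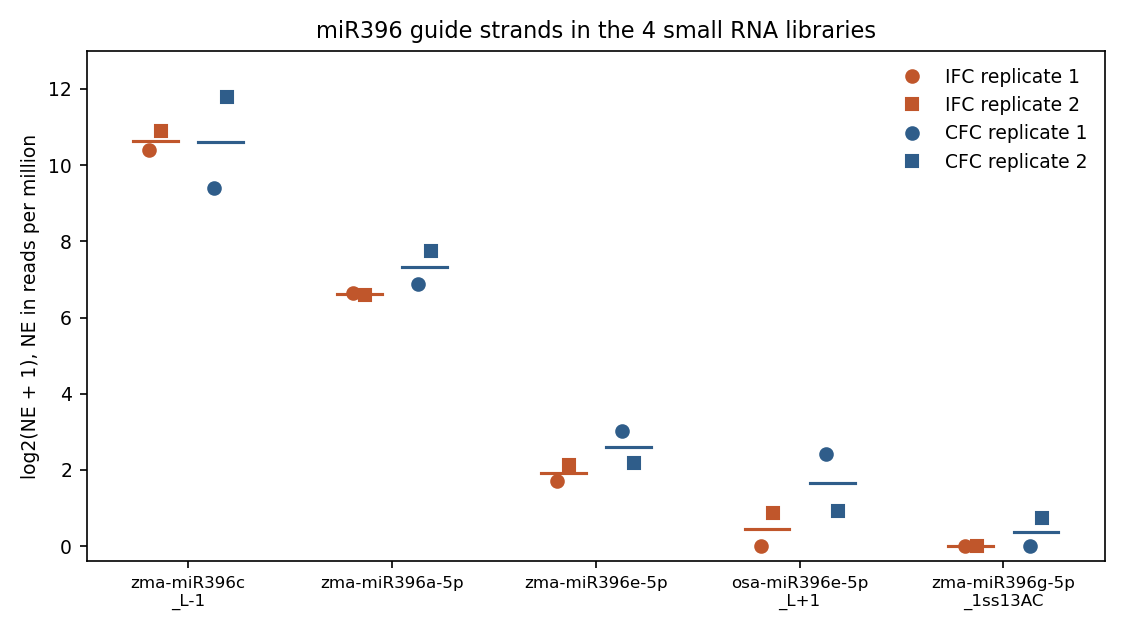
Each point is the log2(NE + 1) of 1 miR396 guide strand in 1 small RNA library, NE in RPM, with IFC left of CFC and a bar at the mean of the 2 replicates. The IFC points of zma-miR396c_L-1, at an NE of 1345 and 1893, lie between its CFC points at 676 and 3539, while both IFC points of zma-miR396a-5p, at 98.5 and 94.99, lie under both CFC points.

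To ask whether any guide differed between the phenotypes, log2(NE + 1) of the 145 miRNAs that passed the filter was fitted with limma, two-sided, with Benjamini-Hochberg adjustment over all of them. None of the 4 guides tested passed an adjusted p of 0.05, and neither did any other miRNA, so the share called was 0.0%. At an unadjusted p under 0.05, 1 of the 145 miRNAs and none of the guides would have passed. The unadjusted p was 0.386 for zma-miR396a-5p, 0.961 for zma-miR396c_L-1, 0.402 for zma-miR396e-5p and 0.164 for osa-miR396e-5p_L+1, and the adjusted p was 0.999 for each of them in the limma fit. With 2 libraries in each group, the smallest two-sided p that exact permutation of one miRNA allows is 0.333. A p that misses the threshold does not show that the levels were alike, and the interval of zma-miR396a-5p still holds a difference of more than 2 log2 units. Of the 4 guides tested, 3 had both IFC values under both CFC values, where 14.5% of all tested miRNAs did, and none had both above, where 8.28% did. These 3 were zma-miR396a-5p and the pair with 10 or fewer reads in every library. As shares of the summed NE of the known miRNAs, the groups overlapped for all 3. The median log2 fold change over all 145 miRNAs was -0.02.

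**Figure D2:**
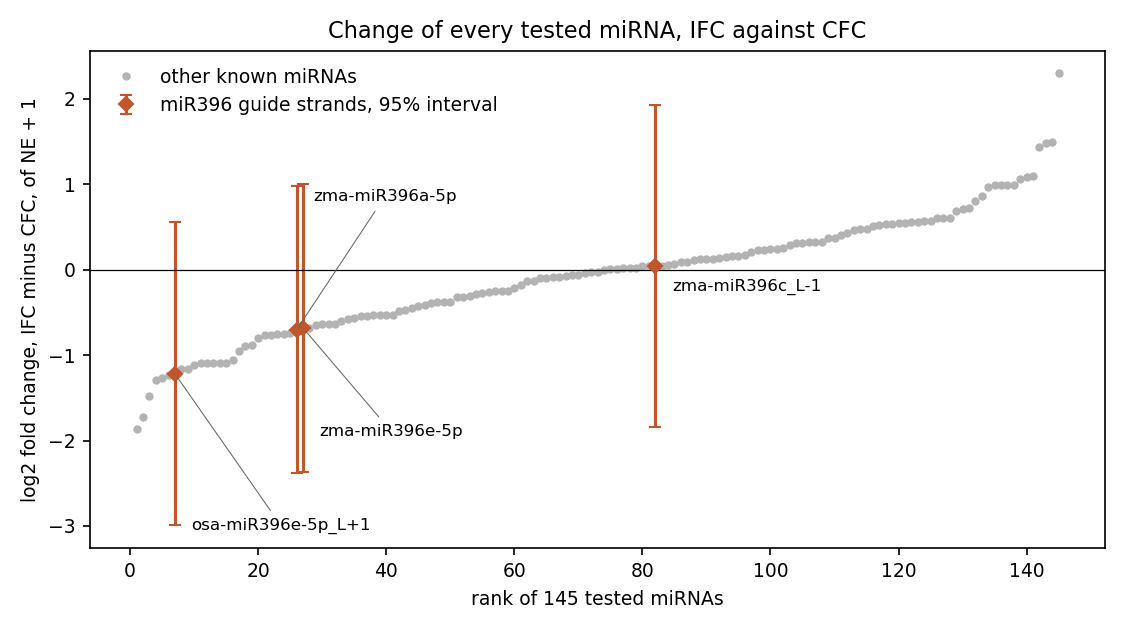
Log2 fold change, IFC minus CFC, of NE + 1 for each of the 145 tested miRNAs in rank order, with the 4 miR396 guide strands as diamonds and their 95% intervals from the limma fit as bars. The 4 intervals all cross 0, from -1.84 to 1.93 for zma-miR396c_L-1 and from -2.38 to 0.97 for zma-miR396a-5p.

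Taking the guides of the family together, their summed NE was 1445 and 1992 in the IFC libraries, against 805 and 3757 in the CFC libraries. Their share of the summed NE was 7.51% and 7.49% in the IFC libraries, against 2.86% and 13.3% in the CFC libraries. The 2 IFC libraries were nearly equal and lay between the CFC libraries. The ratio of the group means was 0.754, or -0.41 on the log2 scale, where the spread between replicates within a group was 1.13. Without CFC replicate 2 the log2 ratio was 1.09, and without CFC replicate 1 it was -1.13, so the direction of the sum was set by which CFC library was used. zma-miR396c_L-1 gave 93.0% and 95.02% of the sum in the IFC libraries, against 84.0% and 94.2% in the CFC libraries. The sum of the other guides was 99.98 ± 1.14 in IFC and 173 ± 62.8 in CFC ovaries (SD, n = 2 each). Its ratio was 0.576, and zma-miR396a-5p made up most of it.

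The proportion of the 2 abundant guides also differed between libraries. There were 13.7 and 19.9 copies of zma-miR396c_L-1 for each copy of zma-miR396a-5p in the IFC libraries, against 5.75 and 16.6 in the CFC libraries. The groups overlapped in this proportion, and CFC replicate 1 stood lowest.

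The miRNAs whose pattern over the 4 libraries was most like that of each abundant guide were different for the 2 guides. Likeness was the root mean square difference of log2(NE + 1), centred for each miRNA, among 65 miRNAs of other families with an NE above 5 in every library. The nearest were picked by this difference over only 4 libraries, so a shared shape follows from the choice and was not tested. Nearest to zma-miR396c_L-1 were zma-miR159a-5p at 0.23, osa-miR166a-3p_R+1 at 0.26 and zma-miR164f-5p_R-1 at 0.31, with a median of 0.88 over the candidates. These shared with it a low value in CFC replicate 1 and a high value in CFC replicate 2, as in zma-miR159a-5p, whose NE was 68.7 and 91.2 in the IFC libraries, against 35.5 and 127 in the CFC libraries. Nearest to zma-miR396a-5p were zma-miR399a-3p at 0.20, zma-miR168a-5p at 0.23 and zma-miR827-5p_L+1 at 0.24, with a median of 0.69. zma-miR168a-5p, the miRNA of the transcript for ARGONAUTE1, had an NE of 178 and 244 in the IFC libraries, against 302 and 417 in the CFC libraries.

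The opposite strands did not follow one pattern. zma-miR396a-3p, the strand paired with zma-miR396a-5p in the chromosome 4 hairpin, had an NE of 27.5 and 56.5 in the IFC libraries, against 56.6 and 37.3 in the CFC libraries. osa-miR396e-3p_L-3 stood at 13.7 and 32.6 NE in the IFC libraries, against 44.5 and 17.6 in the CFC libraries, while zma-miR396f-3p_2ss2GT7GT was listed at 0 in both IFC libraries, against 1.43 and 0.879 NE in the CFC libraries. None of the 3 passed the limma test. In Arabidopsis, TCP transcription factors that are targets of miR319 raise miR396. The 2 listed miR319 sequences of the 3p arm summed to an NE of 2280 and 4016 in the IFC libraries, against 3403 and 2665 in the CFC libraries, and neither passed the test. The listed tae-miR319, whose name gives no arm, is not part of that sum. The 7 listed sequences of miR2118 and miR2275, which trigger phased small RNAs in anthers, summed to an NE of 33.2 and 49.4 in the IFC libraries, against 43.4 and 19.3 in the CFC libraries. Their groups overlapped, each of the 7 was above 0 in at least 1 library, and their part in the guide levels was not tested.

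In the degradome, all 7 GRF genes had a single main site, at the position listed for zma-miR396c_L-1, zma-miR396a-5p and zma-miR396e-5p alike. The signal (TPB) was the number of tags at a position relative to all raw reads sequenced, and 1 tag was worth 59.1 TPB in the IFC and 59.9 TPB in the CFC library, the deposited signal being divided among the transcripts a tag matched. The values below are sums over the listed transcripts of a gene. In bulk tissue, fewer cells that hold a transcript, less transcript per cell and less cutting per transcript cannot be told apart from these values.

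GRMZM2G033612, named GRF8 in RefSeq, carried more than 50% of the GRF signal, with 183 tags or 10819 TPB in the IFC library, against 298 tags or 17865 TPB in the CFC library. Its site, at position 1019 of transcript T02, ranked second among the 113 genes in both libraries. The IFC over CFC ratio was 0.606, with an exact 95% interval from 0.501 to 0.730 for counting error only. It made up 52.6% of the signal of the 7 genes in the IFC library, against 56.1% in the CFC library.

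GRMZM2G129147 (GRF5) and GRMZM2G041223 (GRF6) were the pair whose tags were shared. GRMZM2G129147 had 4513 TPB in the IFC library, against 5975 TPB in the CFC library, over 2 transcripts, and GRMZM2G041223 had 335 TPB in IFC, against 560 TPB in CFC. Neither gave whole tags alone, with 76.3 and 5.67 tags in IFC, against 99.7 and 9.33 tags in CFC, but together they gave 82 tags in IFC and 109 tags in CFC. The levels of the 2 genes are therefore uncertain singly. Their joint ratio was 0.742, with an interval from 0.550 to 0.997.

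GRMZM2G018414 (GRF13) showed a larger difference than GRMZM2G033612 on fewer tags. It had 18 tags or 1064 TPB in the IFC library, against 51 tags or 3057 TPB in the CFC library, summed over 2 transcripts with the site at positions 753 and 491. The ratio was 0.348, with an interval from 0.191 to 0.606. It ranked 17 among the 113 genes in the IFC library, against 8 in the CFC library, and made up 5.17% of the GRF signal in IFC, against 9.60% in CFC.

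At 2 genes the signal was nearly equal in both libraries. GRMZM2G099862 (GRF2) had 45 tags or 2660 TPB in IFC, against 46 tags or 2758 TPB in CFC, over 4 transcripts. Its ratio was 0.965, with an interval from 0.625 to 1.49. GRMZM2G034876 (GRF1) had 18 tags or 1064 TPB in IFC, against 19 tags or 1139 TPB in CFC, over 3 transcripts, with a ratio of 0.934 and an interval from 0.462 to 1.88. A ratio as low as that of GRMZM2G033612 lies inside the interval of GRMZM2G034876, so a difference of that size was not detectable there. It lies just outside that of GRMZM2G099862, an interval that PCR copies among the tags could make too narrow.

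GRMZM2G067743 (GRF11) was the weakest site, with 2 tags or 118 TPB in IFC, against 8 tags or 480 TPB in CFC, over 3 transcripts. Its ratio of 0.247 had an interval from 0.0255 to 1.24. It was also the only one of the 7 genes whose site was not the single highest position of every listed transcript in both libraries. CleaveLand puts a site that is the single maximum of its transcript in category 0, one that ties for the maximum in category 1 and one above the median in category 2. GRMZM2G067743 was in category 0 on all 3 transcripts in CFC, but in category 1 on T02 and category 2 on T01 and T03 in IFC. The other 6 genes were in category 0 in both libraries on every listed transcript.

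**Figure D3:**
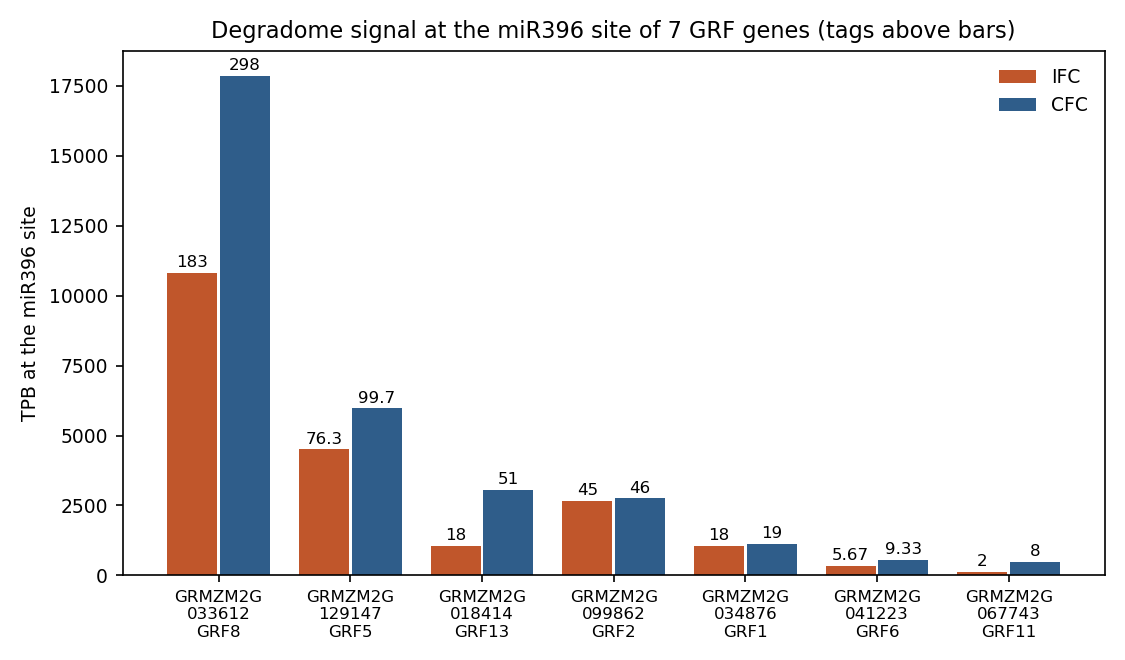
Bars give the degradome signal as TPB at the main miR396 site of each GRF gene, summed over its listed transcripts, with IFC left of CFC and the number of tags above each bar. GRMZM2G033612 stands at 183 tags in IFC and 298 in CFC, while GRMZM2G099862, at 45 tags in IFC and 46 in CFC, is nearly level.

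Summed over the 7 genes, there were 348 tags or 20573 TPB in the IFC library, against 531 tags or 31833 TPB in the CFC library. The ratio was 0.646, with an interval from 0.563 to 0.741. By TPB all 7 genes were lower in IFC, where 65.5% of all 113 genes were, and 4 of the 7 were lower by at least 1.5 times, where 44.2% of all genes were. These 4 were GRMZM2G018414, GRMZM2G033612, GRMZM2G041223 and GRMZM2G067743. GRMZM2G041223 had only 5.67 tags in IFC and 9.33 in CFC, and GRMZM2G067743 had 2 in IFC and 8 in CFC. Among genes with at least 20 tags in both libraries together, all 5 GRF genes were lower in IFC, where 84.6% of all 26 such genes were, and 2 of the 5 were lower by at least 1.5 times, where 30.8% were. Over the 62 genes other than GRF with tags in both libraries, the median ratio was 0.893. The sites of the other miRNA families, taken as a sum, were lower in IFC as well. Their ratio of summed TPB was 0.813, or -0.30 on the log2 scale. By the signals the study printed, the largest single part of that sum was a miR160 site on GRMZM2G159399. Values scaled to the sum therefore lean on that site. Relative to that sum, the GRF ratio was 0.794, 5 of the 7 genes were lower in IFC, where 49.6% of all genes were, and GRMZM2G099862 and GRMZM2G034876 were higher, at 1.19 and 1.15. On that scale 2 of the 7 genes, GRMZM2G018414 and GRMZM2G067743, were lower by at least 1.5 times, where 39.8% of all genes were. The GRF share of the summed signal of all listed genes was 15.9% in IFC and 19.1% in CFC. With 1 library per phenotype no test of the phenotypes was possible.

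**Figure D4:**
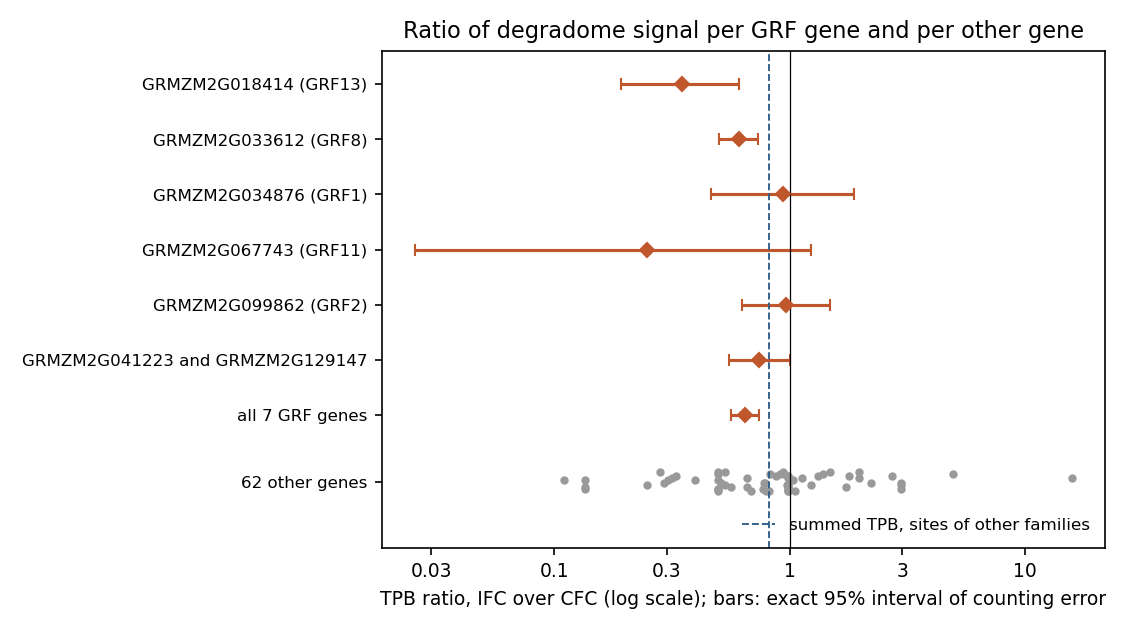
Diamonds are TPB ratios, IFC over CFC on a log axis, of the GRF genes with whole tags, of the pair with shared tags and of all 7 together, with bars for the exact 95% interval of counting error, and grey points are the 62 other genes with tags in both libraries. The intervals of GRMZM2G018414 and GRMZM2G033612 end at 0.606 and 0.730, below the dashed line at 0.813 for the sites of other families, whereas those of GRMZM2G034876, GRMZM2G067743 and GRMZM2G099862 cross 1.

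The guides differed in how they aligned on these sites. On 6 of the 7 genes the alignment score, a sum of penalties that is lower for better pairing, was 1 for zma-miR396c_L-1, 2 for osa-miR396e-5p_L+1 where it was listed, 3 for zma-miR396a-5p and 4 for zma-miR396e-5p. On GRMZM2G099862 it was 3 for zma-miR396c_L-1 and 4 for osa-miR396e-5p_L+1, while those of zma-miR396a-5p and zma-miR396e-5p stayed at 3 and 4. The most abundant guide was thus the best-scoring one on every GRF gene, shared with zma-miR396a-5p on GRMZM2G099862. The alignments of zma-miR396c_L-1 spanned 21 transcript positions, as many as the guide has bases, and the site lay 10 positions from the end that pairs with the 5′ end of the guide. Those of zma-miR396a-5p and zma-miR396e-5p spanned 22 positions for 21 bases, and the same site lay at the 11th position. In Arabidopsis, pairing of miR396 with GRF transcripts leaves such an unpaired transcript base as a bulge. Since all 3 guides point to the same position, the tags do not show which of them made the cut.

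The 22 nt guide osa-miR396e-5p_L+1 places the site 1 position downstream, where few tags were found. That position held 6 tags over all GRF genes in IFC, against 7 tags in CFC, beside 348 tags in IFC and 531 in CFC at the main site. GRMZM2G129147 had 4 tags there in IFC, against 1 in CFC. GRMZM2G033612 had 1 tag in IFC and 3 in CFC, GRMZM2G018414 had 0 in IFC and 3 in CFC, and GRMZM2G099862 had 1 in IFC and 0 in CFC. All but 1 of these counts are at or under the 3 tags that a count of 0 allows, so no difference can be read from them.

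Among the 6 GRF genes with category 0 in both libraries, the CleaveLand p-values of the main site did not vary with the number of tags. For zma-miR396a-5p they were 0.0499 in IFC and 0.0512 in CFC on each of the 6, whether the site held 183 tags or 18. With a threshold of 0.05, as the study used to divide its site classes, the same sites fall on opposite sides of it in the 2 libraries. For zma-miR396c_L-1 they were 0.0550 in IFC and 0.0564 in CFC on 5 of these 6 genes. On GRMZM2G099862, where its alignment score was higher, they were 0.01197 in IFC and 0.0123 in CFC. For zma-miR396e-5p they were 0.0657 in IFC and 0.0673 in CFC on all 6. On GRMZM2G067743, with 2 tags in IFC, the p-value for zma-miR396a-5p was 0.995 in IFC on T01 and T03, where the category was 2, and 0.0556 on T02, where it was 1, against 0.0512 in CFC on all 3 transcripts.

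Outside the GRF genes, miR396 guides had rows on 3 genes, GRMZM2G104025, GRMZM2G005493 and GRMZM2G024293. zma-miR396g-5p_1ss13AC had rows only on GRMZM2G104025 and on no GRF gene. None of these sites was in category 0 or 1 in either library.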

How the data were processed

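Small RNA was analysed in 2 IFC and 2 CFC libraries and the degradome in 1 library of each phenotype. The authors trimmed and filtered the reads, used ACGT101-miR to match them to miRBase and deposited NE in RPM, scaled to clean reads. CleaveLand was run by the authors on the degradome, and they deposited a signal per site (TPB), a category, a p-value and an alignment score. The builds that the authors used for genome and transcripts were not stated in any source at hand. Between 66.3% and 73.8% of NE values under 50 were whole multiples (tolerance 0.012) of the NE of 1 read, so reads were not recovered and no count test was used. Degradome tags were TPB over the TPB of 1 tag (tolerance 0.01), corresponding to 16915044 raw reads in IFC and 16680835 in CFC.

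From the deposited values, miRNAs were kept where any library had an NE above 1. Their log2(NE + 1) was fitted by lmFit and eBayes of limma 3.58.1 under R 4.3.3, IFC against CFC. The test was two-sided, with 13.7 prior and 2 residual degrees of freedom. The fit was tested on simulated data whose changes were larger than any guide showed, with no miRNA set near the limit of detection. That run does not cover small changes or the guides near that limit. Adjusted p-values are Benjamini-Hochberg over 145 miRNAs. TPB ratios have exact conditional (Clopper-Pearson) 95% intervals, which cover counting error only. They take each tag as an independent molecule, so PCR copies among the tags would make them too narrow. For each gene of the whole table, the highest position of each transcript was summed over transcripts. The labels number the replicates but do not say that they came from separate plants, so p-values measure the spread between these samples. Each SE and p-value of a miRNA rests on a variance that limma drew toward the spread shared by all 145. GRF names were matched through RefSeq synonyms (Zm-B73-REFERENCE-NAM-5.0), 7 of 7 genes. All guides and GRF genes of the rule are named, with the 3p strands, the miR319 and anther lists and the 3 nearest patterns. The members, lists and tests were chosen with earlier results of these data known. A separate deposited table of targets that repeats degradome rows was not used. Other values were computed with Python 3.11.15, pandas 2.3.3, scipy 1.17.1 and numpy 2.4.6. Figures were drawn with matplotlib 3.10.9. Alternatives are given in the closing section.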

Additional observations from a re-analysis of the deposited data

How the results depend on the processing

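The limma fit had 11 alternatives. These were pseudocounts of 0.5 and 5, no filter, a filter at an NE of 5, median-of-ratios scaling, a robust fit with a trend, a replicate block and leaving out each library. In those that kept all libraries, 0 guide strands were called. The count over all tested miRNAs was 0 as well, so it sets the guides apart in no way. zma-miR396a-5p and zma-miR396e-5p kept a negative log2 fold change in all 11, and osa-miR396e-5p_L+1 in the 9 in which it was tested. Only median-of-ratios scaling could have changed these signs, since each of these guides had both IFC values of NE under both CFC values. zma-miR396c_L-1 changed sign to -1.15 without CFC replicate 1 and to -0.20 without IFC replicate 2, with a highest value of 1.24 without CFC replicate 2. With a replicate block the call count stayed 0 and the smallest adjusted p of the guides in limma was 0.999, while over all 11 alternatives it ran down to 0.281, without CFC replicate 2. Deviations of same-numbered libraries had a Pearson r of 0.25 across the 145 miRNAs, which are not independent, and the labels do not say what the numbers share. The log2 ratio of the summed guides was -0.41 and ran from -1.13 to 1.09 when 1 library was left out, positive only without CFC replicate 2 (the cause was not tested). The GRF ratio of 0.646 became 0.794 over the sites of other families and stayed between 0.621 and 0.698 under the 3 other alternatives. The 4 GRF genes lower by at least 1.5 times became 2 over the sites of other families and 2 among genes with at least 20 tags, and the 7 GRF genes lower in IFC became 5 of 7 over the sites of other families and 5 of 5 among genes with at least 20 tags; these alternatives of both counts were chosen after seeing the data. Depth limits zma-miR396e-5p, osa-miR396e-5p_L+1, zma-miR396g-5p_1ss13AC, GRMZM2G041223 and GRMZM2G067743, which rest on 10 or fewer reads or tags in any library.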
